A study of Mus musculus with 2 samples.

Results

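The genes described here are 10 regulators of alternative splicing that are known from work on neurons: Rbfox1, Rbfox2, Rbfox3, Nova1, Nova2, Ptbp1, Ptbp2, Srrm4, Khdrbs2 and Khdrbs3. They were chosen by gene symbol, with no use of their values, and all 10 were found among the 55536 annotated genes of the deposited gene tables. Together they have 85 annotated transcripts. They were measured by total RNA-seq in 2 samples of hippocampus from adult males of the B6CASTF1/J strain, a first-generation hybrid of the C57BL/6J and CAST/EiJ strains, aged 8 to 10 months. Each animal gave 1 strand-specific library with reduced ribosomal RNA, made from 300 ng of RNA. Replicate 1 was animal 2 and replicate 2 was animal 4, and no treatment or mutation is given for either. Both libraries form 1 group, so there is no comparison between conditions, and a difference between the libraries may lie between the animals, the dissections or the library preparations. Both samples carry 1 shared donor entry in the labels. The question these data answer is how much of each regulator the tissue held, in which transcript forms, and how closely the libraries matched.

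Alternative splicing decides which exons of a gene are joined into its mRNA, and RNA-binding proteins steer that choice by binding near the exons. RBFOX proteins bind UGCAUG and NOVA proteins bind clusters of YCAY, and both commonly promote an exon when they bind downstream of it and repress it when they bind upstream. PTBP1 binds pyrimidine-rich RNA and represses many neuronal exons. It is replaced by its paralog PTBP2 as neurons form. SRRM4 promotes very short neuronal exons, called microexons, and the KHDRBS proteins SLM1 (Khdrbs2) and SLM2 (Khdrbs3) control exons of genes for synaptic adhesion proteins. Several of these regulators also splice their own transcripts, and the exons in question are shown first.

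The first set is the 40-base coding exon of the RBFOX genes, known in Rbfox1 as the brain exon because neurons use it where muscle uses a 43-base exon. Capitals mark the positions that differ among the 3 genes, and sequences run 5′ to 3′ on the coding strand. They were read from the GENCODE M21 transcripts, with coordinates on GRCm38 (mm10).
Rbfox1: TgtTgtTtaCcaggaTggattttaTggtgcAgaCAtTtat
Rbfox2: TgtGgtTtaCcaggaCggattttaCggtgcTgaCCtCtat
Rbfox3: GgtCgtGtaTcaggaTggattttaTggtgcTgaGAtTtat
They lie at chr16:7363865-7363904 on the plus strand, chr15:77094451-77094490 on the minus strand and chr11:118496351-118496390 on the minus strand. All 3 had the same base at 30 of 40 positions (75%). Rbfox1 matched Rbfox2 at 34 positions (85%), and Rbfox2 matched Rbfox3 at 31 (77.5%).

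The second set is the 43-base exon that takes the place of the 40-base exon in other transcripts of Rbfox1 (chr16:7369801-7369843) and Rbfox2 (chr15:77091812-77091854). Capitals mark the positions that differ between the 2 genes.
Rbfox1: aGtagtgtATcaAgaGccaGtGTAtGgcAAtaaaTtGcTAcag
Rbfox2: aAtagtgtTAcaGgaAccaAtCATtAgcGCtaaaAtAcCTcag
These exons matched at 27 of 43 positions (62.8%), less than the 40-base exons of the same genes.

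The third set is the 93-base exon that codes for part of the RNA recognition motif of the RBFOX proteins. RBFOX proteins are known to cause its skipping in their own transcripts, which gives a protein that binds RNA poorly. It lies at chr16:7292185-7292277 in Rbfox1, chr15:77105577-77105669 in Rbfox2 and chr11:118502842-118502934 in Rbfox3. Capitals mark the positions that differ among the 3 genes.
Rbfox1: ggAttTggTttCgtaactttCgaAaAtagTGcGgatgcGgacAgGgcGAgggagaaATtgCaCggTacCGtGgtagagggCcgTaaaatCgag
Rbfox2: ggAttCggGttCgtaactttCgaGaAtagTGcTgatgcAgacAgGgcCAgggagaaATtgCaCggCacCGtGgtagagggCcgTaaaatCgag
Rbfox3: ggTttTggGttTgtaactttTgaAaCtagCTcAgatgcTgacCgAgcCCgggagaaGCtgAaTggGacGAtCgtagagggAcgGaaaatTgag
Rbfox1 and Rbfox2 matched at 86 of 93 positions (92.5%), and each matched Rbfox3 at 69 (74.2%).

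The fourth set is the 34-base exon of Ptbp1 (chr10:79862014-79862047, plus strand) and of Ptbp2 (chr3:119724612-119724645, minus strand). PTBP1 is known to cause its skipping in both genes. Because 34 is not a multiple of 3, skipping shifts the reading frame and the transcript becomes a target of nonsense-mediated decay, the pathway that destroys mRNAs with an early stop codon. Capitals mark the positions that differ.
Ptbp1: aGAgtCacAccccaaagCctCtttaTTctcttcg
Ptbp2: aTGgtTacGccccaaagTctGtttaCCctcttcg
The 2 exons matched at 26 of 34 positions (76.5%).

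The next sequence is the 78-base exon of Ptbp1 (chr10:79860117-79860194, plus strand), which codes for part of the linker between RNA-binding domains and whose skipping is known to weaken PTBP1 as a repressor. It is shown because its use was intermediate here.
Ptbp1: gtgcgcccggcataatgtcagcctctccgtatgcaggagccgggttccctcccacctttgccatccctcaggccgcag
Its length is a multiple of 3, so both forms keep the reading frame.

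Depth and composition were as follows. The gene tables held 23458117 expected counts in replicate 1 and 29584307 in replicate 2, where an expected count is an estimated number of reads after shared reads are divided among genes. Each library has these gene values with a transcript table (the first table) and a further transcript table from another program (the second table), and values are from the first unless stated. Neuronal markers summed to 2715 and 2792 TPM (a level per unit of transcript length, scaled to a fixed sum in each library), astrocyte markers to 569 and 564, oligodendrocyte markers to 1646 and 1621, and microglial markers to 86.3 and 97.6. Markers of oligodendrocyte precursors summed to 26.2 and 23.5 TPM, endothelial markers to 51.2 and 46.4, mural markers to 36 and 39.6, and ependymal markers to 5.75 and 8.85. No gene of these lists was called different between the libraries by edgeR, and 1, an oligodendrocyte marker, had an unadjusted p under 0.05. The 6 choroid plexus markers stood apart: they summed to 16.2 TPM in replicate 1 and 1766 TPM in replicate 2, and all 6 passed the test of a difference between libraries described below. The highest of them was Ttr, the transthyretin gene, at 8.68 and 1703 TPM, and the lowest was Aqp1, at 0.25 and 6.18 TPM.

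All 10 regulators were detected in both libraries, from 5.47 to 174 TPM. Their median level was 48 TPM (the median of the means of 2 animals), against 17.4 TPM over 13016 detected protein-coding genes. The highest mean was 25.8-fold above the lowest. The RBFOX genes together made 449 TPM in replicate 1 and 381 TPM in replicate 2, which was 56.7% and 53.2% of the sum over the 10 genes.

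Rbfox1, which is restricted to neurons, heart and muscle in the adult, had 174 TPM in replicate 1 and 151 TPM in replicate 2 (163 ± 16.1 TPM, SD, n = 2). Rbfox3, whose protein is the neuronal nuclear marker NeuN, had 138 and 127 TPM (132 ± 7.86, SD, n = 2). Rbfox2, which is also made outside neurons, had 137 and 103 TPM (120 ± 23.9, SD, n = 2). All 3 were lower in replicate 2 on the TPM scale, though Rbfox3 was not in the scaled counts used for the test below (log2 ratio of 0.06). In bulk tissue, fewer cells of a type and less RNA per cell cannot be told apart. Rbfox1 was above Rbfox3 by a ratio of 1.26 and 1.19 in the 2 libraries and above Rbfox2 by 1.27 and 1.47, with the deposited TPM bounds apart in both. Rbfox3 and Rbfox2 did not separate: their ratio was 1.01 in replicate 1, where the bounds overlapped, and 1.23 in replicate 2. The bounds cover the uncertainty of dividing reads, not the variation from animal to animal. For Rbfox1 and Nova2 the TPM lay above its own bounds in both libraries, so calls from the bounds are not calls on the TPM printed for those genes.

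Nova2, the NOVA protein of the cortex and hippocampus, had 36.6 and 32.4 TPM (34.5 ± 3.03, SD, n = 2). Nova1, known mainly from hindbrain and spinal cord, had 15.6 and 16.8 TPM (16.2 ± 0.849, SD, n = 2). Nova2 stood above Nova1 by 2.35-fold and 1.93-fold, with bounds apart in both libraries.

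Ptbp2 had 56.6 and 66.4 TPM (61.5 ± 6.94, SD, n = 2), and Ptbp1, which glia and other non-neuronal cells keep, had 36.8 and 31.6 TPM (34.2 ± 3.67, SD, n = 2). Ptbp2 was higher by 1.54-fold in replicate 1 and 2.1-fold in replicate 2, with bounds apart in both. The gap depended on which transcripts were counted. Over transcripts of 1000 bases or more, a limit chosen after the values were seen, Ptbp1 had 14.1 and 13.1 TPM, 2.52-fold less than over all of its transcripts. Ptbp2 then had 46.5 and 43.1 TPM, and the ratio of Ptbp2 to Ptbp1 was 3.31 and 3.3. The 3′ end of Ptbp1 overlaps Plppr3 on the other strand (19.3 and 18.7 TPM), and the sources used here do not say whether the counting used strand. The 34-base exon of Ptbp1 lies in that overlap, and the 78-base exon does not.

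Srrm4 had 17.7 and 11.7 TPM (14.7 ± 4.22, SD, n = 2). Its value in replicate 1 lay above that in replicate 2, with bounds of 15.7 to 19.5 against 10.7 to 12.8 TPM. Its paralog Srrm3, which also promotes microexons, had 44.7 and 26.3 TPM and was likewise lower in replicate 2, with an unadjusted p of 0.00303 and an adjusted p of 0.211 in the edgeR test below. Srrm3 was named after its values were seen.

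Khdrbs3 had 171 and 172 TPM (172 ± 0.0919, SD, n = 2) and Khdrbs2 had 7.82 and 5.47 TPM (6.64 ± 1.66, SD, n = 2), the highest and the lowest mean of the 10 in the first table. In the second table Rbfox1 was above Khdrbs3 in both libraries, with 199 and 181 TPM against 174 and 156 TPM. Within the KHDRBS pair the ratio was 21.9 and 31.4, the widest of the 6 family pairs compared. Over transcripts of 1000 bases or more, Khdrbs3 had 99.8 and 92 TPM, below the 172 and 150 TPM of Rbfox1, and the ratio of Khdrbs3 to Khdrbs2 was 12.8 and 17.5. SLM1 is known from a restricted set of neurons.

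**Figure D1:**
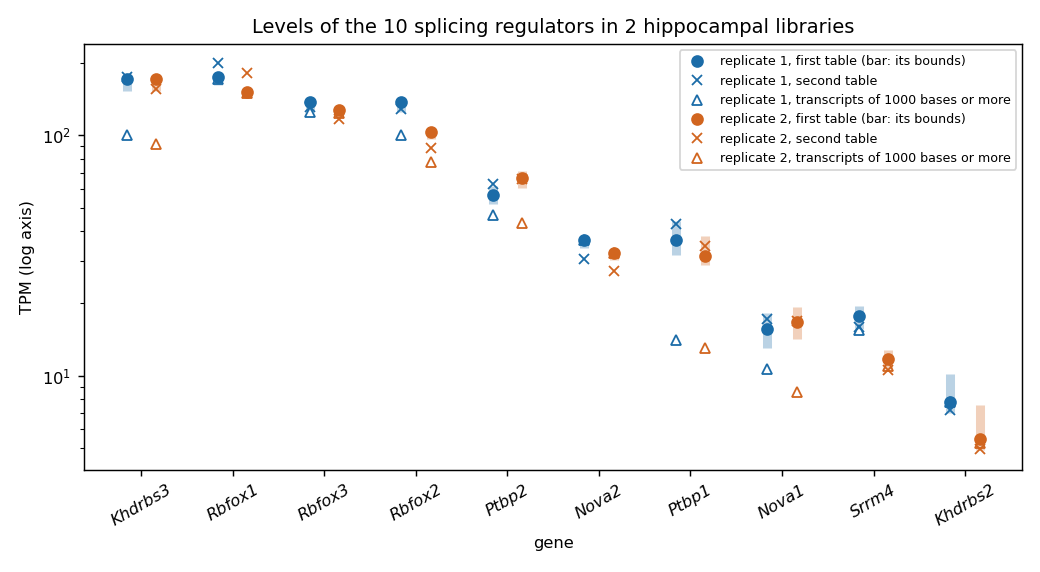
TPM of the 10 regulators (log axis) in replicate 1 (blue) and replicate 2 (orange), ordered by mean. Circles are the first table with its deposited bounds as pale bars, crosses the second table, and open triangles the first table over transcripts of 1000 bases or more, where Ptbp1 falls from 36.8 to 14.1 TPM in replicate 1 and Khdrbs3 from 171 to 99.8 TPM.

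In the order of means the genes ran Khdrbs3, Rbfox1, Rbfox3, Rbfox2, Ptbp2, Nova2, Ptbp1, Nova1, Srrm4 and Khdrbs2. Of the 9 neighbouring pairs, 5 were separated by their bounds in both libraries with the same order. The pairs that were not were Khdrbs3 with Rbfox1, Rbfox3 with Rbfox2, Nova2 with Ptbp1, and Nova1 with Srrm4. Khdrbs3 and Rbfox1 exchanged places between the libraries, with a ratio of 0.985 and 1.13, and so did Nova1 and Srrm4, at 0.884 and 1.44. Nova2 and Ptbp1, which were nearly equal, also did, at 0.997 and 1.03. Within families, 5 of 6 pairs were separated, and all 6 had the same order by the second table. Of the 9 neighbouring pairs, 7 had the same gene higher in both libraries of the second table. The other pairs were reversed there in both libraries: Khdrbs3 to Rbfox1 had a ratio of 0.876 and 0.864, and Nova2 to Ptbp1 0.718 and 0.79.

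The libraries were compared gene by gene with edgeR on rounded expected counts, which asks whether a gene differs between the 2 libraries more than genes of like level do. The p-values compare these libraries, not conditions. Over 16123 tested genes, 126 passed a Benjamini-Hochberg adjusted p of 0.05 (0.781%), and none of the 10 regulators did. None had an unadjusted p under 0.05 either. None was called when DESeq2 supplied the size factors and the dispersion trend for the same edgeR test. Log2 ratios of replicate 2 over replicate 1 ranged from -0.61 for Khdrbs2 to 0.09 for Ptbp1. The 4 genes above 0 were Rbfox3, Nova1, Ptbp1 and Ptbp2, and all 10 were below 0 when the libraries were scaled by the ERCC spike-ins (synthetic RNAs added in a known amount), a scaling that shifts the median of all genes by -0.23. The median size of the log2 ratio was 0.06 over the 10 regulators and 0.19 over all tested genes, given as a description of genes of unlike level. The most deviant by p was Srrm4, with a log2 ratio of -0.36, an unadjusted p of 0.0539 and an adjusted p of 1.0 by edgeR. The choroid plexus markers moved between the same libraries, and their part in these ratios was not tested.

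The transcripts behind the levels differed among the genes. The deposited percent value of a transcript is its share of the TPM of its gene. Rbfox1 was mostly Rbfox1-201, a 3061-base coding transcript, with 63.2% in replicate 1 and 66.5% in replicate 2. Rbfox1-205, annotated without its 3′ end, had 30.2% and 26.8%. Rbfox2 was led by Rbfox2-203 (6573 bases) with 49.8% and 46%, followed by Rbfox2-213, an incomplete model of 882 bases, with 20.1% and 23.9%. In the second table that incomplete model had 2.92% and 8.47%. Rbfox3 was divided among 3 coding transcripts: Rbfox3-204 with 31.2% and 35.9%, Rbfox3-203 with 25% and 29.2%, and Rbfox3-205 with 26.8% and 25.9%. By share of TPM, no leading transcript of the RBFOX genes moved by more than 5 percentage points between libraries. By expected counts Rbfox2-203 moved further, with 81.8% of its gene in replicate 1 and 70.7% in replicate 2.

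Nova1 was led by Nova1-201 (7154 bases), with 56.6% and 50.5%. The 571-base noncoding transcript Nova1-205 had 12.9% in replicate 1 and 36.3% in replicate 2, on 13.3 and 54.6 expected counts, while Nova1-201 held 93.1% and 93.9% of the counts of the gene. In the second table Nova1-205 had 33.6% and 47.9%, against 41.9% and 40.9% for Nova1-201, so it was the higher of the pair there in replicate 2. The short incomplete Nova1-203 had 18.4% and 10.1%. Shares of TPM thus weigh short transcripts far above their reads. For Nova2 the annotation lists Nova2-201 and Nova2-202, whose sequences of 8372 bases are identical, so the 50% given to each was set by the program and not by reads.

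Ptbp1 was the only member whose leading transcript in the first table was not coding. Ptbp1-214, a 744-base transcript with a retained intron, had 20.8% and 13.4%, on 69.5 and 51.7 expected counts. By mean share the next were the retained-intron transcript Ptbp1-213 with 15.3% and 11%, the incomplete coding transcript Ptbp1-215 with 7.74% and 12.7%, the processed transcript Ptbp1-203 with 6.57% and 11.4%, and Ptbp1-205, a further retained-intron transcript, with 10.5% and 6.25%. Ptbp1-212, a 385-base decay transcript, had 8.48% and 2.19%. No transcript of Ptbp1 held more than 20.8% in that table, and the whole gene had 604 and 797 expected counts. In the second table Ptbp1-214 had 8.37% and 9.27%, and no transcript led in both libraries. The incomplete coding transcript Ptbp1-211 was highest in replicate 1, with 20.8% and 7.52%, and the incomplete coding transcript Ptbp1-209 was highest in replicate 2, with 7.38% and 23%. Ptbp1-203, Ptbp1-209 and Ptbp1-211 were named after their values were seen.

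Ptbp2 was led by the coding Ptbp2-201, with 57.9% and 48.5%. The decay transcript Ptbp2-206, a 576-base model without its 5′ end, had 9.56% and 20.9%, on 36.3 and 126 expected counts. Its annotated coding part ends 364 bases before the last exon junction. The single-exon retained-intron transcript Ptbp2-205 had 9.02% and 5.13%. Srrm4-201 (7472 bases) held 69.2% and 86.3% of Srrm4, and the retained-intron transcript Srrm4-203 held 14.4% and 3.22%. In the second table Srrm4-203 went the other way, with 9.18% and 11%. Khdrbs2 was mainly Khdrbs2-201, with 69.6% and 78.2%, and Khdrbs2-205 with 17% and 14%.

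The largest part of the Khdrbs3 TPM was on Khdrbs3-205, a 501-base model without its 3′ end. That transcript had 38.6% and 45.6% of the TPM but 13.5% and 17.5% of the expected counts. The full-length Khdrbs3-201 had 24.5% and 15% of the TPM, the decay transcript Khdrbs3-204 had 16.1% and 19.1%, and Khdrbs3-206 had 14% and 17.4%. Khdrbs3-204 ends its coding part 117 bases before its last junction.

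Grouped by annotated class, Nova2 and Khdrbs2 were wholly protein-coding, and Rbfox1 was so for 98.5% and 98.9% of its TPM. Retained-intron transcripts made 56.3% and 40.5% of Ptbp1, against 10.3% and 7.57% over all protein-coding genes. In the second table the Ptbp1 share was 29.9% and 24.1%, so its size depended on the program, though it stayed above the 11% and 8.34% of all coding genes. Protein-coding transcripts made 26.1% and 43.4% of Ptbp1. Decay transcripts made 19.7% and 21.2% of Khdrbs3 and 12.6% and 24.3% of Ptbp2, against 2.99% and 2.83% over all coding genes. In the second table these were 17.4% and 20.4% for Khdrbs3 and 18.3% and 30.2% for Ptbp2. By expected counts the decay share was 31.6% and 35.6% for Khdrbs3, 3.5% and 7.06% for Ptbp2, and 2.21% and 1.99% over all coding genes.

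**Figure D2:**
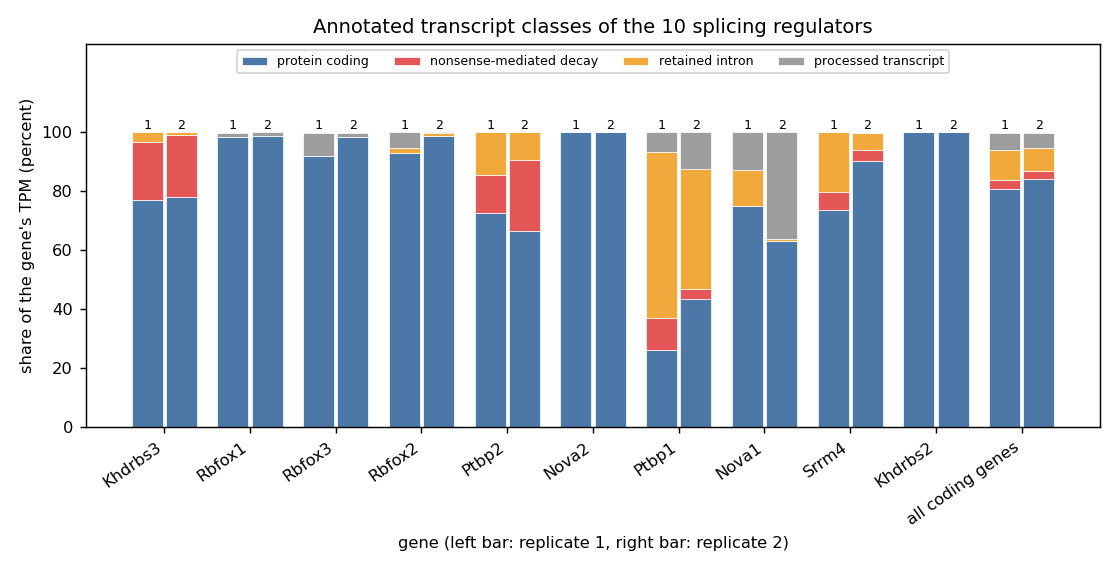
Share of the TPM of each gene (percent) in 4 annotated transcript classes, with replicate 1 on the left and replicate 2 on the right of each pair, and all protein-coding genes at the far right. Ptbp1 has the most retained-intron signal (56.3% and 40.5%), and Ptbp2 and Khdrbs3 the most decay signal.

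The retained-intron share was lower in replicate 2 in all 6 members that have such a transcript, by both tables. In Srrm4 the share was 20.3% and 5.9% in the first table, but 16.1% and 13.8% in the second. In Nova1 it was 12.1% and 0.654%, and 4.95% and 0.293% in the second table. A lower share in replicate 2 was found in 5754 of 7563 detected coding genes with such a transcript (76.1%). The direction was thus common in the libraries as a whole. Small loci inside the members had the same direction. The members contain 17 loci of the classes TEC (loci awaiting experimental evidence) and sense-intronic on their own strand. Of these, 11 reached 1 TPM in a library, in 7 members, and all 11 were lower in replicate 2. Over all such loci in the genome 940 of 1001 were lower (93.9%). The highest was Gm42664 within Ptbp2 (chr3:119743208-119746446), with 7.66 and 4.62 TPM, followed by 4833412C15Rik within Rbfox2, with 4.53 and 1.55 TPM. These loci were chosen after the values were seen.

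Inclusion of a cassette exon, one that is present in some transcripts and skipped in others, was computed as the TPM of transcripts with the exon over the TPM of those plus the transcripts that span it without it. It rests on annotated transcripts and not on junction reads. The members have 29 annotated cassette exons in 8 genes, and in 12 of them (41.4%) inclusion was between 5% and 95% in both libraries. With the second table also in that range there were 9 (31%), in 6 genes. Over the other detected coding genes 30.7% of 21336 exons met both conditions.

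Rbfox2 used the 40-base exon printed above in 77% of its transcripts in replicate 1 and 79.1% in replicate 2 (78.1% ± 1.54, SD, n = 2). Its 43-base exon was in 12.7% and 10.2% (11.5% ± 1.77, SD, n = 2). No annotated Rbfox2 transcript held both, and 10.3% and 10.6% held neither. The brain exon was the main form of Rbfox2 in both libraries and by both tables, the second giving 71.5% and 73.4%. Rbfox1 had 98.4% and 97.6% of the 40-base exon in the first table, but 70.8% and 65.7% in the second. Its 43-base exon had 1.59% and 2.39% in the first table and 29.2% and 34.3% in the second. The incomplete 558-base transcript Rbfox1-206, which holds the 43-base exon, had 0 in the first table and 12.4% and 16.4% in the second. The Rbfox1 exons fell outside the range and were added after their values were seen.

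The 93-base exon for the RNA recognition motif had an inclusion of 90.1% and 92.2% in Rbfox2 (91.1% ± 1.46, SD, n = 2). In Rbfox3 the aligned exon had 100% and 99.7%. In the annotation no Rbfox1 transcript that spans this exon skips it. In Rbfox2, nearly all skipping of this exon and all inclusion of the 43-base exon in the first table came from Rbfox2-207 (1041 bases). The 2 exon values are therefore not separate results. That transcript had 8.97% and 7.46% of the TPM of Rbfox2 but 2.14% and 1.67% of its expected counts. A 40-base exon in the 5′ untranslated region of Rbfox3 was included in 70.4% and 73.4% (71.9% ± 2.1, SD, n = 2). The coding 40-base exon of Rbfox3 has a longer form of 181 bases that starts 141 bases earlier and adds whole codons. Transcripts with the longer form made 38% and 33.2% of the 2 forms (35.6% ± 3.37, SD, n = 2), and 36.2% and 32.6% in the second table. This site was chosen after the transcripts were seen.

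In the PTBP genes, inclusion of the 34-base exon printed above was 83.3% and 70.7% in Ptbp2 (77% ± 8.88, SD, n = 2), and the second table gave 71% and 59.4%. The transcripts that skip it are decay or retained-intron transcripts. In the first table most of their TPM was on the incomplete 576-base Ptbp2-206, with 5.4 of 7.13 TPM and 13.9 of 16.1 TPM. By expected counts, transcripts with the exon had 1575 and 2044 and those without it 72.8 and 189. In Ptbp1 the matching exon had 88.8% and 95.3% (92.1% ± 4.56, SD, n = 2), with 76.8% and 84.3% in the second table. It was added after its value was seen, since 95.3% lies outside the range. Inclusion was lower in replicate 2 for Ptbp2 and higher for Ptbp1, by both tables. The Ptbp1 direction is uncertain, because all skipping in the first table rested on Ptbp1-201. That transcript had 0.94 and 0.45 TPM, on 22 and 14.3 expected counts. Its lower bounds were near 0 in both libraries, with upper bounds of 2.35 and 2.02 TPM. The 78-base linker exon of Ptbp1 had 61.8% and 52.4% (57.1% ± 6.65, SD, n = 2), 73.3% and 73.5% in the second table, and 29.4% and 40.1% when only coding and decay transcripts were counted. Its main carrier among the rest is the retained-intron transcript Ptbp1-205.

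Srrm4 has a 16-base exon (chr5:116454673-116454688, minus strand) that occurs in the decay transcript Srrm4-205. It is shown because the gene that promotes microexons holds a microexon of its own.
Srrm4: gaggagtccttgcttg
Its inclusion was 8.06% and 4.09%, on 1.07 and 0.43 TPM, and 12.7% and 11.6% in the second table, and it was added after its value was seen. In Khdrbs3 exons of 117 and 147 bases were both included in 85.5% and 82.5% (84% ± 2.15, SD, n = 2). They share these values because Khdrbs3-206 lacks both, and both lengths keep the reading frame. A noncoding 65-base exon of Nova1 had 15.8% and 41.5% (28.7% ± 18.2, SD, n = 2), and 41.8% and 53.8% in the second table. It occurs only in Nova1-205, and no coding or decay transcript holds it.

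**Figure D3:**
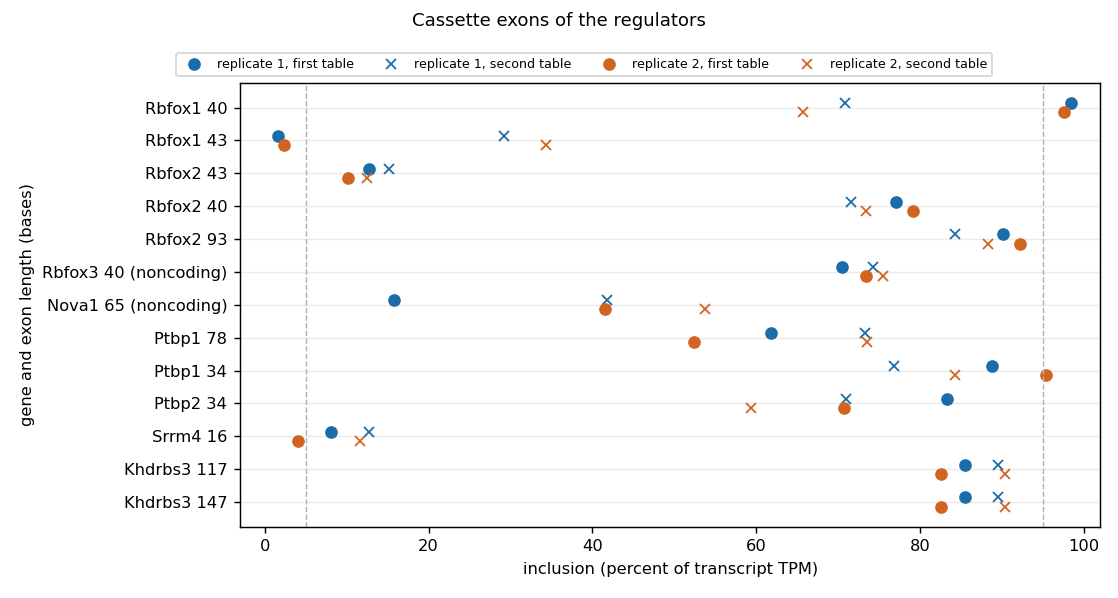
Inclusion (percent) of the 9 cassette exons of the members that lay between 5% and 95% (dashed lines) and of 4 more exons of Rbfox1, Ptbp1 and Srrm4. Circles are the first table and crosses the second, blue for replicate 1 and orange for replicate 2, and the tables differ most for the Rbfox1 exons (98.4% against 70.8% for the 40-base exon in replicate 1).

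Exons known as targets of these proteins were read in the same libraries. The list of 26 target genes was drawn up from known regulation, so the state of its exons is no independent sign of activity. It held 29 annotated microexons of 3 to 27 bases in 17 genes. Of these, 26 (89.7%) were between 5% and 95% in both libraries and both tables, against 49.8% of 848 microexons in the other detected coding genes. The median difference between the libraries over the 26 was 3.19 percentage points. Of them, 3 are printed because they are established targets. The neuronal exon of the kinase gene Src is controlled by PTB proteins and SRRM4, and the exons of Eif4g1, a translation initiation factor, and Zfyve27, which codes for protrudin, are promoted by SRRM4.
Src: gaggaaggtggatgtcag
Eif4g1: ggaggattcaggtctctgcag
Zfyve27: gagacccacctggtggtgctg
They lie on the plus strand at chr2:157458843-157458860, chr16:20674786-20674806 and chr19:42185620-42185640, and all 3 keep the reading frame.

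The 21-base exon of Eif4g1 was included in 60.4% and 56.5% (58.4% ± 2.8, SD, n = 2), and that of Zfyve27 had 53.5% and 48% (50.8% ± 3.9, SD, n = 2). Both exons were near the middle of the range, with both forms made in the tissue. The 18-base exon of Src had 72.6% and 90.5% (81.5% ± 12.7, SD, n = 2), the widest difference between the libraries among the 26, and the second table gave 77% and 91.2%. Src itself had 73.8 and 65.4 TPM.

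Nrxn2 and Nrxn3 code for presynaptic adhesion proteins, and KHDRBS proteins act on genes of this family. In Nrxn2, 2 microexons were in the range, with 48.1% and 47.7% (24 bases) and 45.9% and 46% (27 bases). In Nrxn3 there were 3, which ran from 25.1% and 24.3% to 86.5% and 88.5%. The exon that KHDRBS proteins are best known to control, at splice site 4, is longer than a microexon and is not among these.

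Most of the further microexons named here were mainly included. Apbb1, which codes for the adaptor FE65, had its 6-base exon in 86.8% and 91.4%, Kif1b, a kinesin gene, its 18-base exon in 88.4% and 87.9%, and Cpeb4, a regulator of translation, its 24-base exon in 82.4% and 78.2%. Agrn, the agrin gene, had 72.7% and 74.2% for its 24-base exon and 72.9% and 70.6% for its 12-base exon. Of the MEF2 transcription factors, Mef2c had 80.7% and 75.2% for its 24-base exon, while Mef2d had 16.5% and 21.6% for its 21-base exon. Bin1 had 69.6% and 68.8%, and Camta1 56.3% and 53.3%. Low inclusion was also found in Ank2, with 15.1% and 15.6% for a 12-base exon. Unc13b, which codes for a synaptic vesicle priming protein, had 49.4% and 46.7% for a 23-base exon and 12.7% and 7.3% for a 6-base exon.

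**Figure D4:**
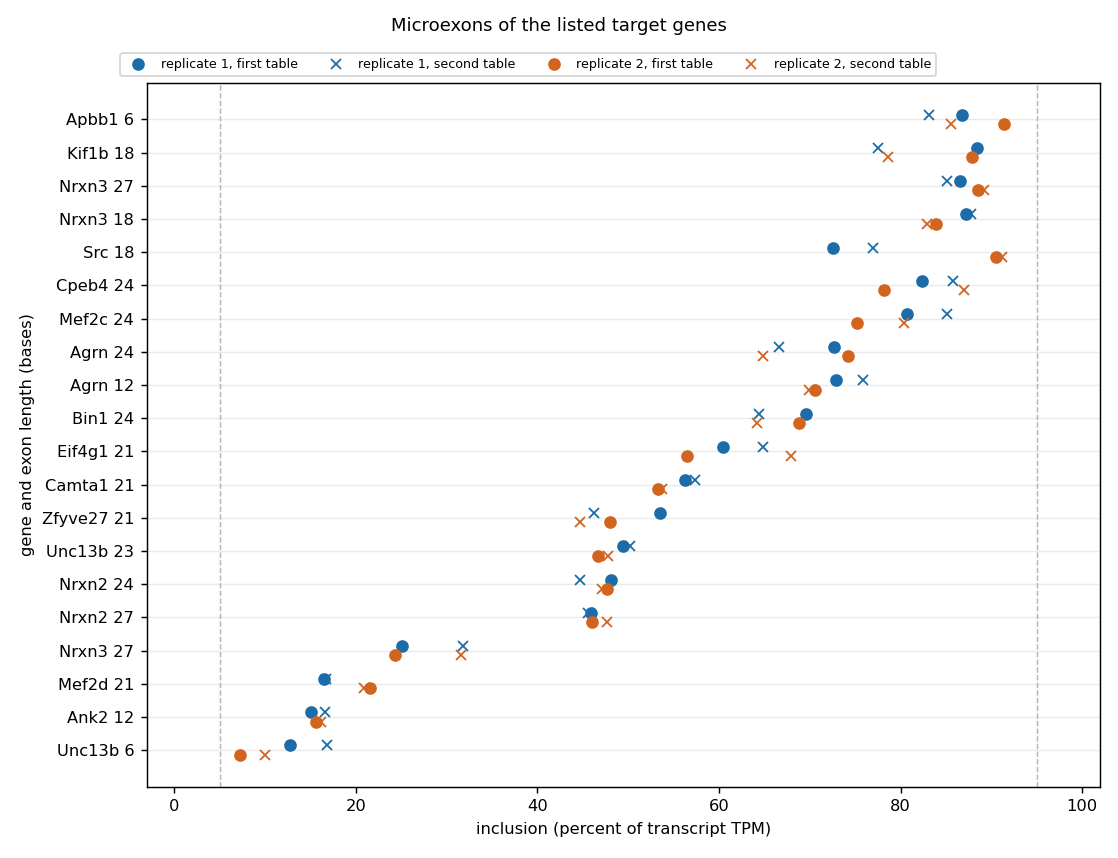
Inclusion (percent) of 20 of the 26 microexons of target genes that lay between 5% and 95%, by gene and exon length, with symbols as for the exons of the regulators. Values of the libraries lie close together except for Src, at 72.6% and 90.5%.

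The wider pathway was read from lists drawn up with these regulators. The 13 cofactors bind the RNA with RBFOX or PTB proteins. All 13 were tested and none was called by edgeR, with 2 at an unadjusted edgeR p under 0.05. They ran from Raver1, a PTB co-repressor, with 15.2 and 15.1 TPM, to Ddx5, an RNA helicase, with 353 and 325 TPM, and the median log2 ratio was -0.1 against 0.00 over all tested genes. Of 16 other splicing regulators, 13 were tested and none was called, with 1 at an unadjusted p under 0.05, Srrm3. They ran from Mbnl3, a muscleblind-like gene listed at 0 and 0.01 TPM (2.28 and 0.716 TPM in the second table), to Srrm2, a component of the spliceosome and of nuclear speckles, with 382 and 245 TPM. The epithelial regulators Esrp1 and Esrp2 were at 0.04 and 0.04 TPM and at 0.02 and 0.24 TPM, near 0 in both libraries. They were named after their values were seen. Of the 26 target genes, all were tested and none was called, with 1, Unc13b, at an unadjusted p under 0.05 (0.0217). They ran from Rest, the repressor of neuronal genes, with 2.02 and 2.19 TPM, to Snap25, with 1028 and 1068 TPM.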

How the data were processed

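Total RNA of 2 hippocampal samples was sequenced as 1 library per animal. The deposited tables use the mm10 assembly and the GENCODE M21 annotation, per the notes deposited with them. Program names and versions are not stated there, and the column names are those of RSEM (first table) and kallisto (second table). The authors deposited expected counts, which are reads per gene or transcript after shared reads were divided by the program. The deposited TPM values are these amounts divided by effective length and scaled to a fixed sum. The deposited percent values give the share of a transcript in the TPM of its gene. The deposited bounds, treated as a signal on the TPM scale, have a level that is not stated. Reads of the CAST/EiJ allele can differ from the mm10 sequence, and the effect of this on the levels was not tested.

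Levels are the mean and SD over 2 animals. Where nothing else is known of the animals, p-values measure only the spread between these 2 libraries, and an exact permutation test of 2 animals cannot pass 0.05. Rounded expected counts of both libraries entered edgeR 4.0.16 (R 4.3.3), which was restricted to genes that reached a CPM (counts scaled to library size) of 1 in either library. TMM factors scaled the libraries, the design was intercept-only, and dispersions followed the fitted trend. Each gene was tested by its residual deviance on 1 degree of freedom (chi-square), and p-values were adjusted by Benjamini-Hochberg over all tested genes. Log2 ratios use a prior count of 2, and a gene was detected at 1 TPM. As alternatives, size factors or the dispersion trend were taken from DESeq2 1.42.0, with the same edgeR fit and deviance test. Of the expected counts, 0.21% and 0.243% were on features that are not annotated genes, such as spike-ins, and these were left out. Depth was 23458117 and 29584307 expected counts, and the bounds cover counting and read division only.

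Transcripts were named where they led their gene, where their mean share was 10% or more, or, for decay and retained-intron transcripts, 5% or more. Exons were named at 5% to 95% inclusion in both libraries and both tables. Of the fixed lists, the genes past the threshold and the highest and lowest were named. The members, lists, tests and alternatives were chosen with earlier results of these data known. Some target exons are counted but are not reported here by name. Figures were drawn with matplotlib 3.10.9.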

Additional observations from a re-analysis of the deposited data

How the results depend on the processing

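None of the 10 regulators and none of the genes of the pathway lists was called under the 7 alternatives to the edgeR fit: DESeq2 size factors, ERCC scaling, no filter, a common dispersion, the DESeq2 trend, the second table and another prior count. The other prior count enters only the log2 ratios, so it could not change a call. The lowest unadjusted edgeR p of a regulator over the 7 alternatives was 0.0451, for Srrm4, and the lowest adjusted p was 0.892. Over all genes the count of calls was 341 with a common dispersion, against 126 as reported, and from 86 to 126 under the other alternatives. Within families, 6 of 6 pairs kept 1 order by the second table and over transcripts of 1000 bases or more, where bounds were not used. Without replicate 1 there were 6 pairs with bounds apart and without replicate 2 there were 5. The median level of the 10 genes was 51.5 TPM by the second table, 39.7 TPM over transcripts of 1000 bases or more (chosen after seeing the data) and 96.7 TPM when scaled over nuclear protein-coding genes alone, against 48 TPM as reported and 46.7 to 49.4 TPM in the single libraries. The median share of the leading transcript was 42.7% by the second table against 51.6%, and the median protein-coding share was 80.2% against 88.6%. By the mean of the 2 libraries the leading transcript was the same in both tables for 8 of 10 genes, not for Rbfox3 and Ptbp1. These 8 include Nova2, whose tie is set by the program, and Nova1, where Nova1-205 led in replicate 2 of the second table. The number of member exons between 5% and 95% was 14 by the second table and 10 over coding and decay transcripts alone, against 12, and from 12 to 15 in the single libraries. Of 42 single levels, shares and inclusions recomputed from the second table, 29 moved by more than the spread between animals. The cause of these moves was not tested. No paired analysis was possible because both libraries belong to 1 group. Depth limits the transcript shares most in Khdrbs2, with 303 and 246 expected counts, and in Ptbp1.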
